A study of Rattus norvegicus with 82 samples.

Results

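The immediate early genes followed here are 10 genes that were chosen by symbol, namely Fos, Fosl2, Jun, Junb, Egr1, Egr3, Atf3, Myc, Nr4a1 and Ier3, and all 10 were found among the 17337 genes of the table. Total RNA of cardiomyocytes was sequenced for each ventricle of 41 rats, right (RV) and left (LV), which gave 82 libraries. The rats had a female Wistar Kyoto and a male Lewis parent. A clip that constricts only as the animal grows sat on the pulmonary artery (PAB) and loaded the RV, or sat on the aorta (AOB) and loaded the LV, and sham-operated animals were the controls. Banded groups ending in H were harvested in compensated hypertrophy and those ending in F in heart failure. Sham-H and Sham-F were the sham groups of these stages. All groups ending in H were harvested 7 weeks after surgery at an age of 11 weeks. By the labels PAB-F animals were harvested 22 weeks after surgery at an age of 28 weeks, and Sham-F and AOB-F animals 26 weeks after surgery at 31 weeks, so the older sham animals were not of the age of the PAB-F animals. Ages are given as labelled, and the study's methods imply other ages at surgery and harvest. The sham animals numbered 7 at the H and 9 at the F stage, the PAB animals 6 and 6, and the AOB animals 6 and 7, with both sexes in each group and 1 RV and 1 LV library per animal. Every heart was first digested whole with collagenase on a Langendorff apparatus, and the ventricles were then minced and digested apart.

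Immediate early genes are transcribed within minutes of a stimulus and need no new protein for it. Kinase cascades and calcium reach factors such as CREB, or SRF with its ELK partners, that already sit at their promoters. Most encode transcription factors that pass the signal on to slower genes, and their short-lived mRNAs are cut back by feedback regulators that the same stimulus induces. In the heart they are known to respond to stretch, to adrenergic and growth factor stimulation and to ischemia. They also respond to the enzymatic digestion that frees cells from tissue, so their level in isolated cells can carry a part that was set during the isolation.

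The members fall into several families. FOS and FOSL2 pair with JUN or JUNB to form the dimeric factor AP-1, and the stress-induced ATF3 can join such dimers. EGR1 and EGR3 are zinc finger factors. MYC drives growth and ribosome production with its partner MAX, NR4A1 is an orphan nuclear receptor, and IER3 is a survival-associated protein and no DNA-binding factor. RefSeq promoter windows on the GRCr8 assembly (250 bases before to 50 bases after the transcription start) were at hand for 4 of the 10 members, Fosl2, Junb, Egr1 and Nr4a1. The counts were made on an earlier rat assembly, so the windows serve for sequence only. The stretches just upstream of the starts of Nr4a1 (chr7:134260038-134260137, plus strand) and Junb (chr19:40080966-40081125, plus strand) are shown 5′ to 3′ because both genes differed between the ventricles in all 3 older conditions. Capitals mark the short CRE core TGACG, to which CREB binds, in either orientation, and the TATA box TATAAA.
Nr4a1: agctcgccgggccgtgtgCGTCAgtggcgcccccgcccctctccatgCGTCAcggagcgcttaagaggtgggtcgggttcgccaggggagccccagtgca
Junb: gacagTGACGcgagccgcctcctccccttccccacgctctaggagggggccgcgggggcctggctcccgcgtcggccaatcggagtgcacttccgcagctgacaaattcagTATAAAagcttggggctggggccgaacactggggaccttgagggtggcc
Over the whole windows and both strands, the core TGACG occurred 4 times in Nr4a1, 2 times in Egr1 and 1 time in Junb, and 21.2% of all 33469 rat promoters held it. The CArG box, the binding motif of SRF, occurred 2 times in Egr1, beginning 105 and 83 bases before the start, and in 1.64% of all promoters. The full CRE TGACGTCA, which contains the core, was in none of the 4 windows (1.83% of all promoters), nor was the AP-1 site TGANTCA (7.33%) or the EGR site GCGTGGGCG (0.544%). Fosl2 held none of these letters, and the matches are descriptions and not proof of binding.

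All 10 members were expressed in every library and passed the filter on low counts, which left 11954 genes to be tested. Between 6675287 and 19665439 counts fell on genes per library, and the lowest single count of a member was 37, for Myc. By mean FPKM, which corrects for gene length, Junb ranked 161 among the 17337 genes, Fos 211, Jun 278, Nr4a1 340, Egr1 401, Atf3 623, Fosl2 808, Ier3 1543, Egr3 3887 and Myc 7500. The AP-1 genes Junb (390 ± 150 FPKM, SD, n = 82 libraries), Fos (318 ± 85.4) and Jun (246 ± 80.7) thus stood among the most abundant mRNAs of these preparations in banded and sham hearts alike, whereas Myc stood at 5.64 ± 3.48.

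Between libraries the members varied several-fold. In CPM, the counts of a gene scaled to a common library size with TMM factors, the highest library exceeded the lowest 3.24-fold for Fosl2, 4.17-fold for Fos, 4.74-fold for Jun, 4.92-fold for Egr1 and 5.07-fold for Atf3. The ratio was 5.61-fold for Junb, 5.96-fold for Nr4a1, 6.07-fold for Ier3, 7.28-fold for Egr3 and 22.4-fold for Myc. The same RV PAB-F library, replicate 2, was the lowest of all 82 for Fos, Jun, Junb and Egr1, and the LV Sham-F library of replicate 1 was the highest for Jun, Egr1 and Nr4a1. Ordered by group medians, RV PAB-F was the lowest of the 12 groups for 7 members (Fos, Jun, Junb, Egr1, Egr3, Atf3 and Nr4a1) and LV AOB-H for the other 3 (Fosl2, Myc and Ier3). The highest group was an LV group of the older animals for 9 members and RV Sham-H for Fos, and the highest group median exceeded the lowest between 1.57-fold (Atf3) and 3.58-fold (Ier3). Within single groups the coefficient of variation ran from 4.11% (Ier3) to 67.6% (Myc), and in all 110 pairs of groups that neighbour each other in these orders the libraries overlapped.

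**Figure D1:**
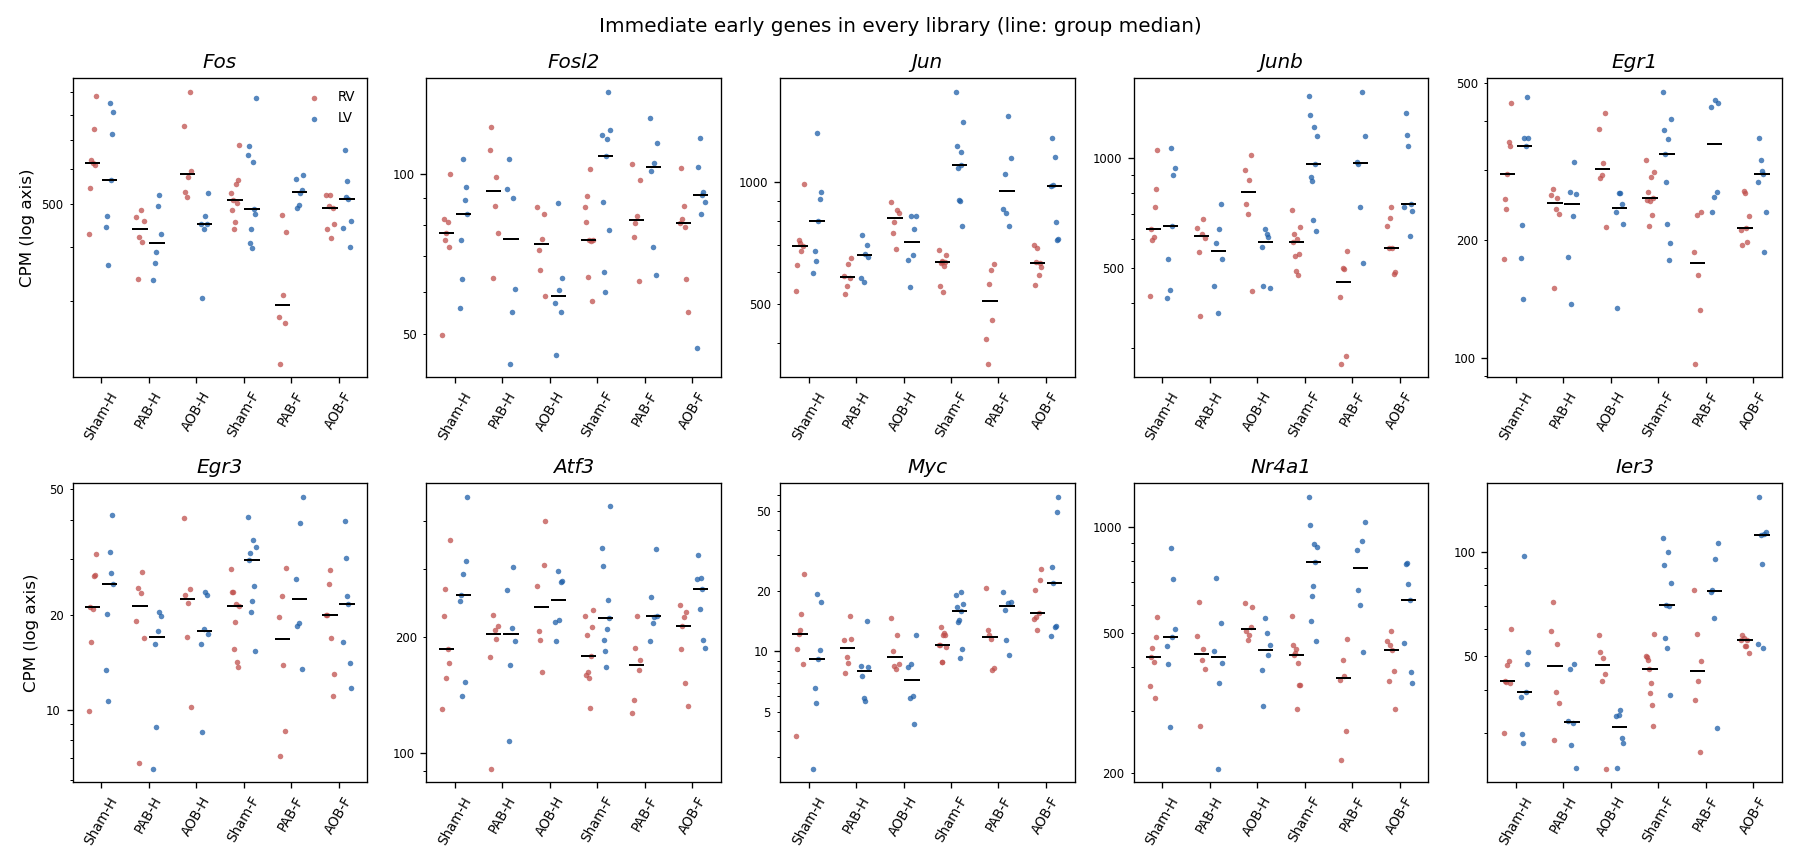
CPM (log axis) of the 10 immediate early genes in every library, by condition, with the RV in red, the LV in blue and the group median as a black line. In RV PAB-F the Fos median lies at 293 CPM, against 511 in RV Sham-F, and Jun, Junb and Nr4a1 lie higher in the LV than in the RV of the older animals.

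The libraries carried the markers of ventricular cardiomyocytes, whose 9 listed genes summed to group medians between 90607 and 127495 CPM. The lists for other cells were far lower, but not at 0, and they moved with ventricle, age and banding. Group medians of the summed CPM ran from 952 to 3398 for 7 endothelial genes, from 329 to 1346 for the fibroblast genes, from 403 to 1377 for 7 mural cell genes and from 32.7 to 173 for 8 macrophage genes. The neutrophil genes were too low to be tested and summed to at most 10.8 CPM. The 8 heat shock genes, listed because digestion is known to induce them, ran only from 1328 to 1694. In such preparations fewer cells of one type and less RNA per cell cannot be told apart, and the part of these cells in the results below was not tested.

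The first comparison asked how the members stood in the ventricle that was loaded by the clip. Fos was lower in the pressure-loaded RV at both stages, Egr1 was lower in the failing RV, and Myc was higher in the failing LV, while the other members did not pass the test in these 4 comparisons. Fos in RV Sham-H ran from 428 to 881 CPM (median 620, n = 7) and in RV PAB-H from 338 to 485 CPM (median 440, n = 6), so 3 of 6 PAB-H libraries lay below every sham library. The log2 fold change of Fos was -0.57 (SE 0.17, adjusted p = 0.0349), and Fos was the only member called of 10, where 4.5% of all genes were called and 0.594% were called lower. This call was lost in 6 of 13 fits that left out 1 animal, namely PAB-H replicates 1, 2 and 3 and Sham-H replicates 5, 6 and 7. The log2 fold changes of these fits lay between -0.59 and -0.47 and their adjusted p between 0.0518 and 0.251. It was also lost with sex as a covariate (-0.52, adjusted p = 0.0578).

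At this stage the unloaded LV gave Fos a value below 0 as well, which did not pass, and the fall in the RV was not shown to differ from it. In the unloaded LV of the same animals Fos ran from 335 to 523 CPM (median 408, n = 6), against 364 to 850 CPM (median 567, n = 7) in LV Sham-H. The log2 fold change there was -0.51 (95% interval -0.84 to -0.19), with an adjusted edgeR p of 0.991 in a comparison in which 0% of all genes were called. The PAB-H response of Fos, RV minus LV, was -0.05 (95% interval -0.51 to 0.40, adjusted p = 0.947), and 0 members and 0% of all genes were called in it.

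In the failing RV the fall of Fos was of like size and rested on no single animal. Fos ran from 439 to 680 CPM (median 511, n = 9) in RV Sham-F and from 216 to 473 CPM (median 293, n = 6) in RV PAB-F, where 5 of 6 libraries lay below all sham libraries. Its log2 fold change was -0.67 (SE 0.16, 95% interval -0.99 to -0.36, adjusted p = 0.00296), and the highest adjusted p of the 15 fits without 1 animal was 0.0243. Egr1, the zinc finger factor that SRF and ELK switch on, ran from 217 to 319 CPM (median 255) in RV Sham-F and from 96.5 to 235 CPM (median 174) in RV PAB-F, with 4 of 6 libraries below all sham libraries. Its log2 fold change was -0.60 (SE 0.21, adjusted p = 0.0456). So 2 of 10 members were called, both lower, where 11.1% of all genes were called and 3.42% were called lower. The Egr1 call was lost without any one of PAB-F replicates 1, 2, 4 and 5 or Sham-F replicates 1, 5, 6, 8 and 9 (adjusted p between 0.0525 and 0.152, log2 fold changes between -0.63 and -0.48). It was also lost with sex as a covariate (-0.58, adjusted p = 0.0566). Junb and Jun, the partners of Fos, had log2 fold changes of -0.46 (adjusted p = 0.119) and -0.30 (adjusted p = 0.143). The median over the 10 members was -0.25, beside 0.02 over all genes tested. All 9 tested fibroblast genes were higher in RV PAB-H and 7 of 9 in RV PAB-F, and the summed fibroblast level ran from 378 to 2061 CPM in RV PAB-F and from 230 to 626 CPM in RV Sham-F. The summed cardiomyocyte level ran from 78434 to 131975 CPM in RV PAB-F and from 103250 to 133546 CPM in RV Sham-F. The part of either list in the lower Fos was not tested.

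**Figure D2:**
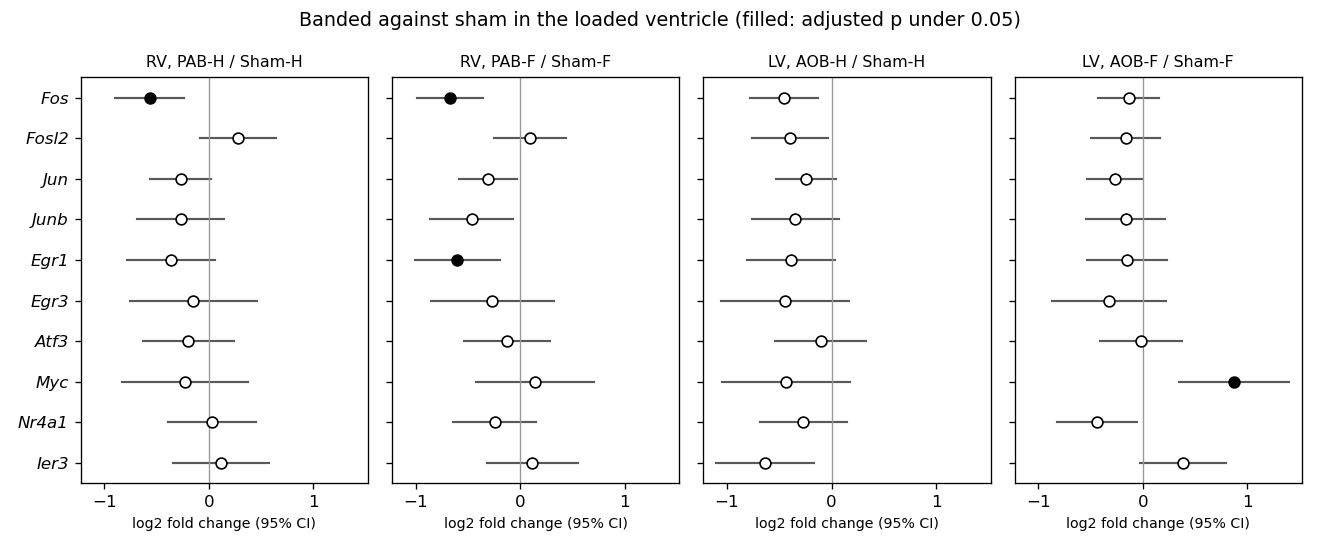
Log2 fold change (x axis, with 95% interval) of each member in the loaded ventricle against the sham ventricle of the same stage, filled where the adjusted p was under 0.05. Fos lies at -0.57 and -0.67 in the RV at both stages, Egr1 at -0.60 in the failing RV and Myc at 0.87 in the failing LV.

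Whether the fall at the failing stage differed from what the unloaded LV of the same hearts did was asked with the difference between both responses. In LV PAB-F, Fos ran from 490 to 584 CPM (median 533) and Egr1 from 235 to 455 CPM (median 350), against 396 to 873 (median 486) and 177 to 475 CPM (median 331) in LV Sham-F. Their log2 fold changes there were -0.06 (95% interval -0.37 to 0.24) for Fos and 0.15 (-0.25 to 0.55) for Egr1. Of all genes tested 0% were called by edgeR, and 454 of 11954 genes and 0 of 10 members had an unadjusted p under 0.05. The difference between the responses, RV minus LV, was -0.61 (SE 0.22) for Fos and -0.75 (SE 0.29) for Egr1 on the log2 scale, with adjusted p of 0.233 and 0.262. In this comparison 0 of 10 members were called, where 0.351% of all genes were. Both libraries of a heart come from 1 animal, and with the animal as a block both members passed, Fos at -0.70 (SE 0.18, adjusted p = 0.0231) and Egr1 at -0.83 (SE 0.20, adjusted p = 0.016). There 2.92% of all genes were called and 0.577% were called with a lower response in the RV. The other 8 members did not pass with the block either, with differences between -0.42 for Junb and 0.12 for Fosl2.

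In the loaded LV the pattern was another one. At the failing stage Myc rose in LV AOB-F, from 9.3 to 19.6 CPM (median 15.8, n = 9) in LV Sham-F to 12 to 58.4 CPM (median 21.7, n = 7), with 4 of 7 AOB-F libraries above every sham library. Its log2 fold change was 0.87 (SE 0.27, adjusted p = 0.0218), and Myc was 1 of 10 members called, where 12.9% of all genes were called and 8.54% were called higher. The call was lost when only both groups were fitted (0.83, adjusted p = 0.139), where 15 genes were called in place of 1541. The size of the change rested on AOB-F replicates 7 and 6, since without the first it was 0.58 (adjusted p = 0.173) and without the second 0.67 (adjusted p = 0.112). These 2 libraries also had the highest summed macrophage level of their group (557 and 440 CPM, group median 173) and the lowest summed cardiomyocyte level (56400 and 53776 CPM, group median 90998). Their summed heat shock level was the highest of the group too (2837 and 2631 CPM, group median 1584), and 6 of 8 tested macrophage genes were higher in LV AOB-F. The part of these genes and cells in the Myc level was not tested. Myc in the unloaded RV of the same hearts ran from 12.8 to 25.5 CPM (median 15.4), against 8.85 to 13.2 CPM (median 10.8) in RV Sham-F, so that 6 of 7 libraries lay above all sham libraries. Its log2 fold change there was 0.70 (SE 0.27) and did not pass (adjusted p = 0.862), where 0.0669% of all genes were called. The AOB-F response of Myc, LV minus RV, was 0.17 (95% interval -0.58 to 0.93), an interval that spans 0. In that comparison 0% of all genes were called, and 1161 of 11954 genes and 0 of 10 members had an unadjusted edgeR p under 0.05.

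At the compensated stage no member was called in LV AOB-H, where edgeR called only 0.0167% of all genes. All 10 log2 fold changes were below 0, with a median of -0.39 beside 0.01 over all genes. In the unloaded LV PAB-H, set against the same sham libraries, all 10 were likewise below 0, with a median of -0.35 beside -0.01 over all genes. In LV AOB-H 3 members had an unadjusted p under 0.05. Of these, Ier3 ran from 23.9 to 35 CPM (median 31.3) in LV AOB-H and from 28.2 to 97.2 CPM (median 39.5) in LV Sham-H (log2 fold change -0.64, 95% interval -1.10 to -0.17, adjusted p = 0.143). Fos stood at -0.46 (-0.78 to -0.13, adjusted p = 0.137) and Fosl2 at -0.40 (-0.76 to -0.03, adjusted p = 0.222). The sham libraries spread widely and overlapped with the banded ones for all 3. In the unloaded ventricles LV PAB-H and RV AOB-H also 0 members were called (0% of all genes in both), and 3 and 0 members had an unadjusted edgeR p under 0.05. The PAB and AOB comparisons of one ventricle and stage share their sham libraries and are therefore not independent of each other.

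The genes around the members were taken from lists of the pathway, which were chosen with earlier results of these data known. Of 20 tested feedback regulators, the phosphatases and mRNA decay factors that end the immediate early response, Dusp5, a nuclear phosphatase of the kinase ERK, was the only one called in RV PAB-H (log2 fold change -0.82, SE 0.26, adjusted p = 0.0493). In RV PAB-F Dusp5 (-1.04, SE 0.25, adjusted p = 0.00355) and Spry2, an inhibitor of growth factor signaling (-0.49, SE 0.15, adjusted p = 0.0279), were called. Btg1 was the only feedback gene called in LV AOB-F (0.41, SE 0.11, adjusted p = 0.00832). None of 15 other immediate early transcription factors was called in any of the comparisons of banded and sham groups. Among 12 tested upstream factors and corepressors, Nab2, a corepressor of EGR proteins, was higher in RV PAB-H (0.93, SE 0.24, adjusted p = 0.0172). Rps6ka1, a kinase downstream of ERK, was higher in RV PAB-F (0.90, SE 0.24, adjusted p = 0.00997), and its relative Rps6ka3 in LV AOB-F (0.65, SE 0.22, adjusted p = 0.0428).

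Known targets of AP-1 and EGR were called in RV PAB-H, RV PAB-F and LV AOB-F, while in LV AOB-H almost no gene of any kind was called. Of 14 tested targets, 0 were higher in LV AOB-H, 9 in LV AOB-F, 5 in RV PAB-F and 3 in RV PAB-H, and 0 were lower. This list was chosen with earlier results of these data known, so the counts do not test the targets as a set. Of all 11954 genes tested, 1 was higher in LV AOB-H, 1021 in LV AOB-F, 916 in RV PAB-F and 467 in RV PAB-H. They included Spp1, which encodes osteopontin (4.12, SE 0.92, adjusted p = 0.0019), and Timp1, a metalloproteinase inhibitor (2.15, SE 0.44, adjusted p = 0.000926), in LV AOB-F. In RV PAB-F they included Ctgf, a matricellular protein (2.03, SE 0.26, adjusted p = 1.74e-08), and Ptgs2, the inducible prostaglandin synthase (1.90, SE 0.47, adjusted p = 0.00467). In RV PAB-H, Ptgs2 (1.93, SE 0.51, adjusted p = 0.0197), the proteoglycan gene Vcan (1.42, SE 0.39, adjusted p = 0.0237) and Ctgf (1.04, SE 0.27, adjusted p = 0.0197) were higher. Several of these genes are also made by fibroblasts and macrophages, and the lists of these cells moved with the same groups. Of the 7 tested partners of MYC, Max was lower in RV PAB-F (-0.48, SE 0.11, adjusted p = 0.00189) and Mxi1, an antagonist, was higher in LV AOB-F (0.44, SE 0.12, adjusted p = 0.0117).

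The older and younger sham animals were compared next. In LV Sham-F against LV Sham-H, 4 of 10 members were called, all higher, where 57.4% of all genes were called and 27.8% were called higher, so the share of members called was below that of all genes. Jun, the main AP-1 partner, ran from 595 to 1327 CPM (median 803, n = 7) in LV Sham-H and from 780 to 1678 CPM (median 1107, n = 9) in LV Sham-F (log2 fold change 0.44, SE 0.13, adjusted p = 0.00402). Junb was higher by 0.54 (SE 0.19, adjusted p = 0.0143), Nr4a1 by 0.58 (SE 0.19, adjusted p = 0.00921) and Ier3 by 0.65 (SE 0.21, adjusted p = 0.00797) on the log2 scale, and the libraries overlapped for all 4. The Junb call was lost without Sham-H replicate 1 or 3 (adjusted p between 0.052 and 0.0548). In RV Sham-F against RV Sham-H 0 members were called, as were 0.0502% of all genes, and the edgeR test gave 0 members with an unadjusted p under 0.05. The age response of the LV exceeded that of the RV for Jun by 0.63 (SE 0.19, adjusted p = 0.00611) and for Junb by 0.80 (SE 0.27, adjusted p = 0.0147), where 41.6% of all genes differed and 18.6% had the higher response in the LV. With the animal as a block 5 members passed, Jun and Junb with Myc (0.81, SE 0.25, adjusted p = 0.00766), Nr4a1 (0.64, SE 0.21, adjusted p = 0.0102) and Ier3 (0.70, SE 0.23, adjusted p = 0.011). There 49.8% of all genes were called and 24.7% were called higher. Over the same groups the summed endothelial level had medians of 1820 CPM in LV Sham-H, 2778 in LV Sham-F, 979 in RV Sham-H and 973 in RV Sham-F. In the LV 2 of 7 endothelial genes were higher in the older animals, as were 5 of 7 mural genes (median sums 573 and 1265 CPM), 4 of 8 macrophage genes (43.7 and 81 CPM) and 4 of 9 fibroblast genes (645 and 975 CPM), with 1 fibroblast gene lower. The part of these cells was not tested.

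Both ventricles of a heart were then set against each other within each condition. In Sham-F, PAB-F and AOB-F 6, 7 and 5 of 10 members were called lower in the RV than in the LV, and 0 were called higher. The share of members called was below that of all genes in Sham-F and AOB-F and near it in PAB-F. In the younger animals only Fos in AOB-H passed, and it was higher in the RV. In Sham-F 6 of 10 members were called, all lower in the RV, where 74.3% of all genes were called and 38.6% were called lower. Jun ran from 535 to 679 CPM (median 633) in the RV and from 780 to 1678 CPM (median 1107) in the LV, with no overlap (log2 fold change -0.88, SE 0.13, adjusted p = 3.2e-09), and was lower in the RV of 9 of 9 animals. Nr4a1 ran from 304 to 561 CPM (median 433) in the RV and from 474 to 1221 CPM (median 795) in the LV (-0.92, SE 0.18, adjusted p = 6.27e-06), with 8 of 9 RV libraries below all LV libraries. Junb stood at -0.82 (SE 0.18, adjusted p = 4.33e-05), Ier3 at -0.74 (SE 0.20, adjusted p = 0.0007), Atf3 at -0.47 (SE 0.19, adjusted p = 0.02) and Fosl2 at -0.34 (SE 0.16, adjusted p = 0.0425). Fos itself was not called, with medians of 511 CPM in the RV and 486 CPM in the LV and a 95% interval of the log2 fold change from -0.36 to 0.19. The Fosl2 call was lost without any one of Sham-F replicates 1, 2, 5, 7, 8 and 9 (adjusted p between 0.0622 and 0.215) and the Atf3 call without replicate 1, 2 or 9 (adjusted p between 0.0572 and 0.0846).

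In PAB-F Fos and Egr1 were called as well. There 7 of 10 members were called, all lower in the RV, where 61.1% of all genes were called and 29% were called lower. Junb ran from 271 to 557 CPM (median 455, n = 6) in the RV and from 514 to 1522 CPM (median 971) in the LV (log2 fold change -1.22, SE 0.22, adjusted p = 4.02e-06). Fos (-0.70, SE 0.17, adjusted p = 0.000344), Jun (-1.03, SE 0.15, adjusted p = 1.76e-07) and Egr1 (-1.0, SE 0.22, adjusted p = 9.63e-05) did not overlap between the ventricles, and all 3 were lower in the RV of 6 of 6 animals. Nr4a1 (-1.09, SE 0.22, adjusted p = 2.58e-05), Ier3 (-0.64, SE 0.24, adjusted p = 0.02) and Atf3 (-0.52, SE 0.23, adjusted p = 0.0455) were also lower. The Atf3 call was lost without PAB-F replicate 1, 2, 5 or 6 (adjusted p between 0.0631 and 0.173) and the Ier3 call without replicate 2, 4 or 6 (adjusted p between 0.069 and 0.0929). The median over the 10 members was -0.70, beside 0.03 over all genes.

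In AOB-F 5 of 10 members were called, all lower in the RV, where 67.1% of all genes were called and 35.1% were called lower. Jun ran from 557 to 701 CPM (median 631, n = 7) in the RV and from 721 to 1290 CPM (median 977) in the LV, again with no overlap (-0.59, SE 0.14, adjusted p = 0.00022). Ier3 (-0.83, SE 0.23, adjusted p = 0.00097), Junb (-0.62, SE 0.20, adjusted p = 0.00636), Nr4a1 (-0.48, SE 0.20, adjusted p = 0.0348) and Myc (-0.63, SE 0.29, adjusted p = 0.0466) were lower as well. The calls of Myc (without AOB-F replicate 2, 3, 6 or 7, adjusted p between 0.0631 and 0.184), Nr4a1 (without replicate 2, 3, 4 or 5, adjusted p between 0.0528 and 0.161) and Junb (without replicate 2, adjusted p = 0.0508) depended on single animals. With the animal as a block 8, 8 and 7 members were lower in the RV of Sham-F, PAB-F and AOB-F. There 77.2%, 66.3% and 70.6% of all genes were called and 40%, 32.2% and 36% were called lower. Without the block, 12, 14 and 13 of 20 feedback regulators were lower in the RV of Sham-F, PAB-F and AOB-F, and 0 were higher. In that fit 74.3%, 61.1% and 67.1% of all genes were called and 38.6%, 29% and 35.1% were called lower.

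**Figure D3:**
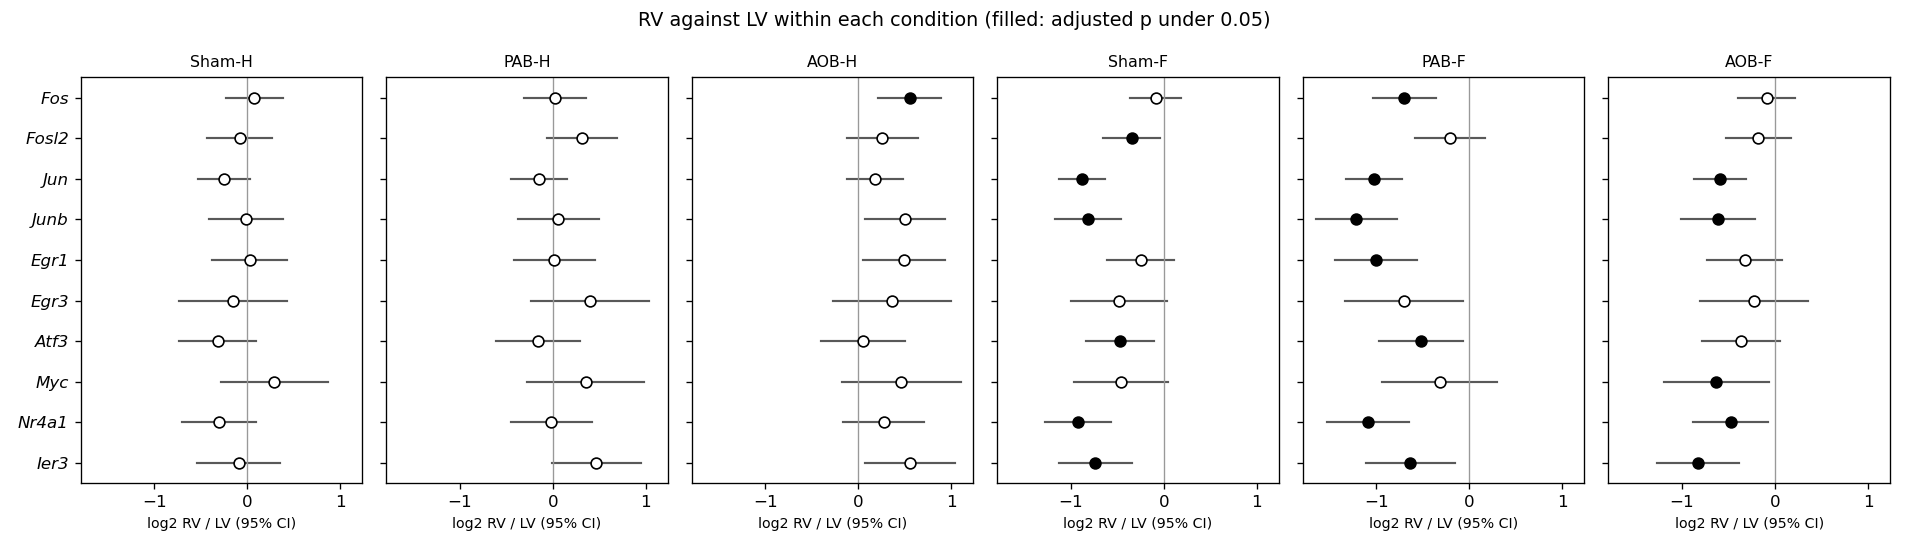
Log2 fold change of RV against LV (x axis, with 95% interval) for each member within each of the 6 conditions, filled where the adjusted p was under 0.05. In the younger conditions on the left only Fos in AOB-H (0.55) is filled, and in the older conditions on the right the filled points all lie below 0, down to -1.22 for Junb in PAB-F.

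Genes of other cells in the preparations also differed between the ventricles of the older animals. Of 7 endothelial genes 6, 5 and 7 were lower in the RV of Sham-F, PAB-F and AOB-F. There 38.6%, 29% and 35.1% of all genes were called lower. Of 9 fibroblast genes 5 and 7 were lower in the RV of Sham-F and AOB-F, and 0 were higher. In PAB-F 3 were lower and 3 higher. The summed endothelial level ran from 767 to 1210 CPM in the RV and from 1828 to 3912 CPM in the LV of Sham-F. In Sham-H, where 0 members were called and 21% of all genes were, 5 of 7 endothelial genes were lower in the RV too, with sums from 869 to 1189 CPM in the RV and from 1243 to 2788 CPM in the LV. In PAB-F the sums ran from 1050 to 1889 CPM in the RV and from 1814 to 3496 CPM in the LV. Summed cardiomyocyte levels had medians of 110582 CPM in the RV and 92303 CPM in the LV of Sham-F, and the part of these lists in the lower members was not tested.

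In AOB-H Fos ran from 520 to 901 CPM (median 585, n = 6) in the RV and from 305 to 530 CPM (median 450) in the LV, and 5 of 6 RV libraries exceeded every LV library (log2 fold change 0.55, SE 0.17, adjusted p = 0.0291). It was the only one of 10 members called, where 7.98% of all genes were called and 1.57% were called higher in the RV. The call was lost without AOB-H replicate 1, 2 or 5 (adjusted p between 0.0855 and 0.182). With the animal as a block Junb (0.47, SE 0.15, adjusted p = 0.0236) and Egr1 (0.49, SE 0.15, adjusted p = 0.0238) joined Fos (0.54, SE 0.14, adjusted p = 0.00513), where 13.7% of all genes were called and 4.46% were called higher. In PAB-H 0 members were called, where 0.125% of all genes were called and the edgeR test gave 0 members with an unadjusted p under 0.05.

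The sum over the 10 members, in which the abundant Jun, Junb, Fos and Nr4a1 weigh most, was also compared heart by heart. In the older animals the summed level was higher in the LV than in the RV of 9 of 9 Sham-F, 6 of 6 PAB-F and 7 of 7 AOB-F hearts. Single members did not all follow the sum. Of the 9 Sham-F hearts, Fos was higher in the RV of 5 and in the LV of 4, and Egr1 of 3 and 6. Median sums were 2662 CPM (RV) and 4114 CPM (LV) in Sham-F. They were 2166 and 4011 CPM in PAB-F, and 2571 and 3311 CPM in AOB-F. In the younger animals the RV was the higher one in 4 of 7 Sham-H, 4 of 6 PAB-H and 5 of 6 AOB-H hearts.

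**Figure D4:**
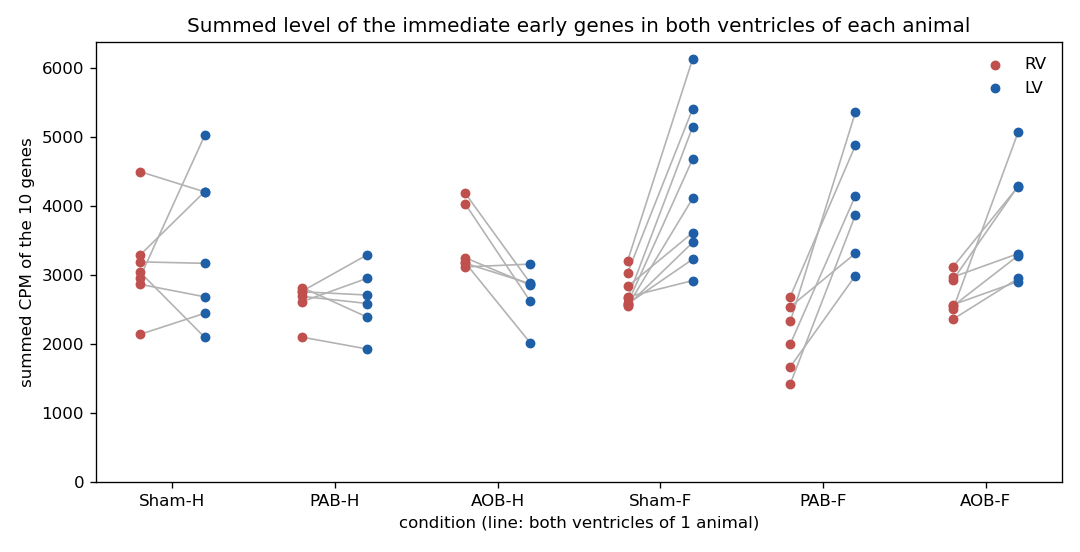
Summed CPM of the 10 members in the RV (red) and LV (blue) of each animal by condition, with a line joining both ventricles of 1 heart. Every line of the F stage rises from RV to LV, and at the H stage lines run both ways.

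Both ventricles of a heart went through one perfusion, so hearts whose RV was high within its group were checked for a high LV. For each gene the deviations of log2 CPM from the group mean were correlated between RV and LV over 41 animals, with animals permuted within their condition and p adjusted over all 11954 genes tested. All 10 members had a positive r, from 0.31 for Jun to 0.65 for Myc with a median of 0.46, and 7 of 10 passed, where 21.6% of all genes passed with a positive r and the median r was 0.26. Myc (r = 0.65, permutation p = 0.00015, adjusted p = 0.00324; rho = 0.49, permutation p = 0.00389), Junb (r = 0.59, permutation p = 1e-04, adjusted p = 0.00253; rho = 0.58, permutation p = 0.00027) and Egr1 (r = 0.58, permutation p = 0.00037, adjusted p = 0.00587; rho = 0.60, permutation p = 0.00027) agreed best. They were followed by Egr3 (r = 0.55, permutation p = 0.00092, adjusted p = 0.0102; rho = 0.54, permutation p = 0.00101), Nr4a1 (r = 0.47, permutation p = 0.00579, adjusted p = 0.0335; rho = 0.41, permutation p = 0.0173), Fosl2 (r = 0.45, permutation p = 0.00781, adjusted p = 0.0406; rho = 0.38, permutation p = 0.0245) and Ier3 (r = 0.44, permutation p = 0.00378, adjusted p = 0.0256; rho = 0.42, permutation p = 0.00737).

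The other 3 members did not pass. Fos (r = 0.34, permutation p = 0.0288, adjusted p = 0.0947; rho = 0.30, permutation p = 0.0546), Jun (r = 0.31, permutation p = 0.0934, adjusted p = 0.206; rho = 0.30, permutation p = 0.0743) and Atf3 (r = 0.38, permutation p = 0.0322, adjusted p = 0.102; rho = 0.25, permutation p = 0.138) had r above 0 all the same. By rho, 5 members passed over all genes, with adjusted p of 0.00649 for Junb and Egr1, 0.014 for Egr3, 0.0324 for Myc and 0.0481 for Ier3. Without the 2 animals farthest from the median LV deviation r was 0.30 for Fos, 0.44 for Fosl2, 0.31 for Jun, 0.49 for Junb, 0.57 for Egr1, 0.59 for Egr3, 0.09 for Atf3, 0.47 for Myc, 0.43 for Nr4a1 and 0.34 for Ier3. The relation of Atf3 thus rested on those animals, and 3 members (Junb, Egr1 and Egr3) then passed over all genes. Myc, which had the highest r of the members over all animals (0.65), no longer passed. With deviations taken from the mean of group and sex, and animals permuted within both, r lay between 0.17 for Fos and 0.56 for Fosl2 and only Fosl2 passed. The share of all genes that passed was not counted for rho or these 2 alternatives. Whether the lower counts are particular to the members is therefore not known. Within single conditions of 6 to 9 animals r was above 0 in all 6 conditions for Junb, Egr1, Atf3 and Ier3, in 5 for Fos, Fosl2, Egr3, Myc and Nr4a1, and in 4 for Jun.

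**Figure D5:**
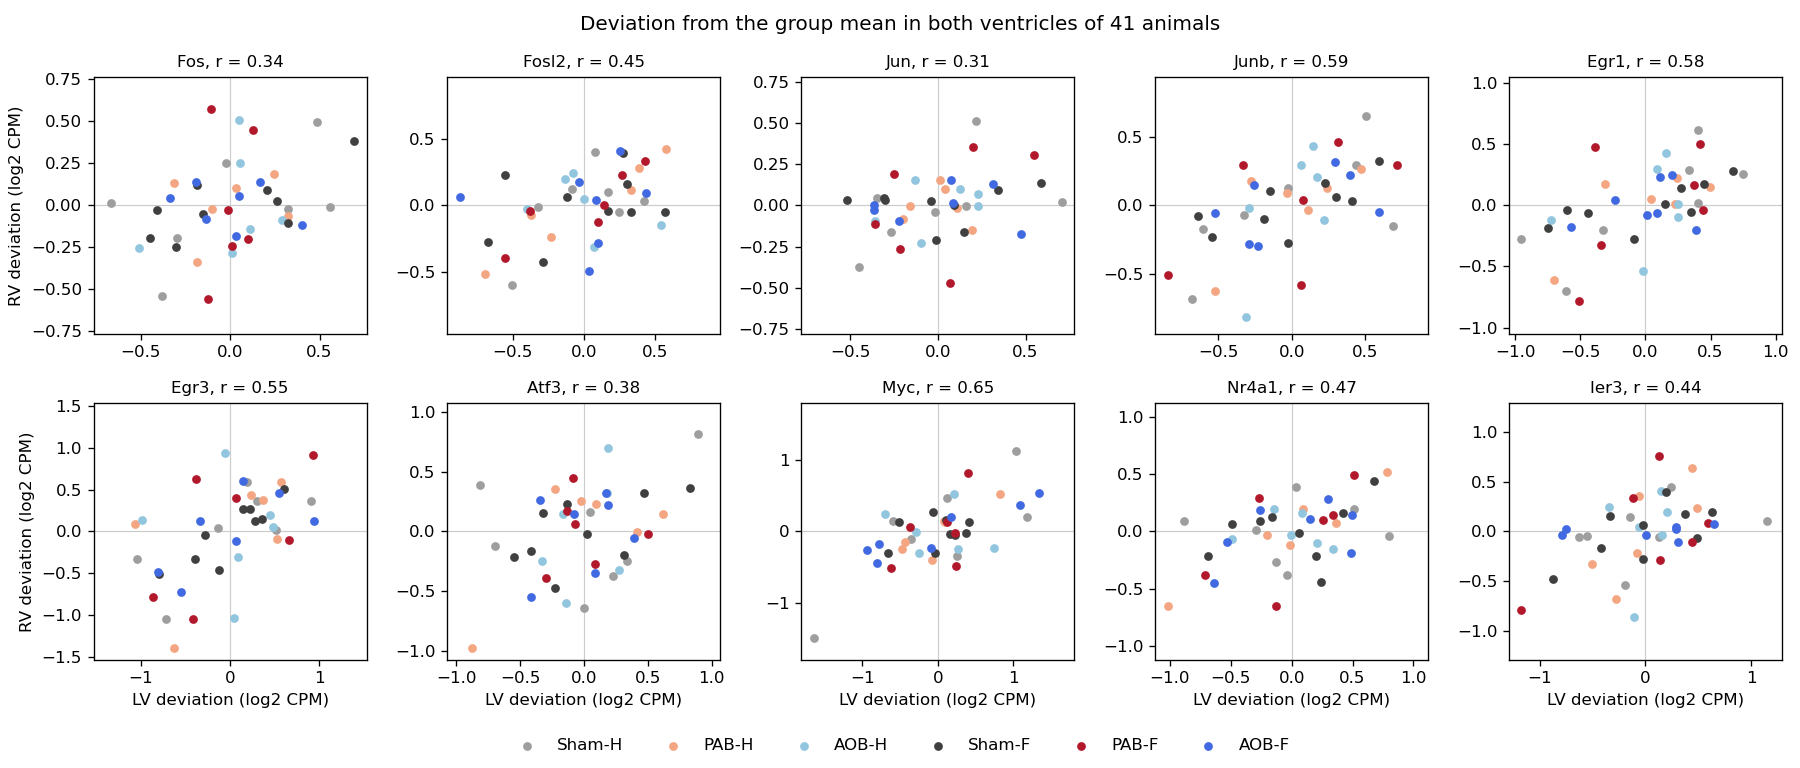
Deviation of log2 CPM from the group mean in the LV (x axis) and RV (y axis) for each member, 1 point per animal, coloured by condition. Points run from lower left to upper right for Junb (r = 0.59), Egr1 (0.58) and Myc (0.65), and scatter more widely for Fos (0.34) and Jun (0.31).

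Genes of the same response agreed between the ventricles to a like degree. Of 20 feedback regulators 17 passed with a positive r (median 0.50), of 15 other immediate early transcription factors 8 (median 0.52), of 14 targets 7 (median 0.43) and of 8 heat shock genes 5 (median 0.43). The 12 upstream factors and corepressors had 2 that passed and a median r of 0.20. Cell type lists agreed too, with 5 of 7 endothelial genes (median 0.48), 5 of 8 macrophage genes (median 0.52) and 5 of 9 cardiomyocyte genes (median 0.44), but 1 of 9 fibroblast genes (median 0.27). These lists were not compared with deviations from group and sex means, under which 1 member passed in place of 7. What both ventricles of a heart share includes the sex and other traits of the animal and the perfusion, and the animal and its perfusion cannot be told apart here.

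Within one ventricle the members varied together, but pairs of other genes were not set beside them. As a description over the 41 animals, in which the members share libraries and depth, the 45 pairs of members had a median r of 0.53 in the RV and 0.58 in the LV, and 42 and 45 of 45 pairs were above 0. Junb was tied most closely to the others (median r 0.67 in the RV and 0.79 in the LV), and Atf3 least (0.20 and 0.33). Over all 82 libraries and 11954 genes, the genes whose deviations from the group means were most like those of Fos were Btg2 (r = 0.81), Fosb (0.78), Cyr61 (0.77), Egr1 (0.75) and Zfp36 (0.74). Those most like Egr1 were Btg2 (0.87), Egr3 (0.86), Zfp36 (0.83), Junb (0.83) and Ppp1r15a (0.81), and those most like Atf3 were Ier5 (0.69), Gadd45b (0.64), Fos (0.64), Gadd45g (0.63) and Fosb (0.63). The genes most like Myc were Adamts4 (0.80), Sbno2 (0.79), RGD1564664 (0.76), Icam1 (0.74) and Rnd1 (0.74), none of them a member.

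Males and females were compared last. With sex as a term beside the groups 0 of 10 members were called between males and females, where 17.2% of all genes were called, and edgeR gave 2 members with an unadjusted p under 0.05. These were Myc (log2 difference of males minus females -0.33, SE 0.12, adjusted p = 0.0512) and Fos (-0.16, SE 0.07, adjusted p = 0.0869), and DESeq2 called Myc. These fits counted both libraries of an animal as independent, although sex is a trait of the animal. Their SE and p can therefore be too small and their share of genes called too high.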

How the data were processed

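Total RNA depleted of ribosomal RNA was sequenced from RV and LV cardiomyocytes. The authors trimmed reads (Trim Galore), mapped them to the rat genome (STAR) and deposited raw counts per gene from featureCounts, with normalised counts (a signal, raw counts over DESeq2 size factors) and FPKM values beside them. Columns of their own comparisons were not used. The 10 members and all gene lists were chosen with earlier results of these data known. Raw counts of 82 libraries in 12 groups were fitted with edgeR 4.0.16 (R 4.3.3; TMM, filterByExpr, quasi-likelihood test), which tested 11954 genes, and Benjamini-Hochberg adjusted p under 0.05 was called. FPKM served only for ranks. CPM on a log2 scale used a prior count of 2. Fits with the animal as a block, DESeq2 1.42.0 and the alternatives of the closing section were added. RV and LV libraries of 1 animal share its number in the labels, and their deviations over genes had a median r of 0.218, over 0.1 in 37 of 41 animals. Agreement between ventricles used 100000 permutations (10000 in alternatives). Named genes of other lists were up to 3 with the largest change among those called between banded and sham groups, and the 5 most like each of Fos, Egr1, Atf3 and Myc. Animals were the replicates within each group, but fits without the animal as a block counted both libraries of an animal as independent. Intervals are 95%, and depth ran from 6675287 to 19665439 counts per library. The fit was tested on simulated data.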

Additional observations from a re-analysis of the deposited data

Results flagged for a closer look

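In 9 of 120 tests of a single library against its group, 1 library lay farther from the rest than Dixon's critical value allows, and chance gives about 1 in 20. All 9 were the lowest library of their group. LV AOB-H replicate 2 was lowest for Fos (305 CPM), Egr1 (134 CPM) and Egr3 (8.46 CPM). RV PAB-H replicate 3 was lowest for Junb (368 CPM), Egr1 (150.5 CPM) and Egr3 (6.75 CPM). The others were Atf3 in RV PAB-H replicate 2 (90.9 CPM), Fosl2 in LV AOB-F replicate 1 (47 CPM) and Ier3 in RV AOB-H replicate 6 (23.7 CPM).

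The age response of the sham LV exceeded that of the sham RV for Jun by 0.63 and for Junb by 0.80 on the log2 scale. With the animal as a block it did so for Jun (0.63), Junb (0.80), Myc (0.81), Nr4a1 (0.64) and Ier3 (0.70). The PAB-F response differed between the ventricles, RV minus LV, by -0.70 for Fos and -0.83 for Egr1 with the animal as a block, and neither passed without it. The cause of these differences was not tested.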

How the results depend on the processing

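The 29 values of called members kept their direction under the alternatives run. Of the values not called, 4 changed sign with the animal as a block, namely the AOB-F response of Myc (0.17 to -0.01) and the ventricle differences of Junb (-0.02 to 0.02) and Ier3 (-0.09 to 0.01) in Sham-H and of Nr4a1 (-0.02 to 0.04) in PAB-H. With sex as a covariate 0 members were called in RV PAB-H and 1 (Fos) in RV PAB-F. In the fits of only the groups compared 0 were called in LV AOB-F, 2 between LV Sham-F and LV Sham-H and 0 between the ventricles of AOB-H. With no filter on low counts 3 were called between the ventricles of AOB-F. Under the study's 3 criteria (a fold, p and mean count threshold) 4 were called between the ventricles of PAB-F, and 0 in LV AOB-F, RV PAB-H, RV PAB-F and the LV age comparison and between the ventricles of Sham-F, AOB-H and AOB-F. Size factors of DESeq2, no filter and DESeq2 each called 1 member (Myc) between males and females, where the count was 0. DESeq2 called 0 members in every other comparison in which edgeR called 0. In the agreement of both ventricles 1 member passed with deviations from group and sex means and 3 without the 2 farthest animals, against 7. The share of all genes that passed was not counted in these settings.

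The labels name no batch behind the replicate number, but it partly follows sex. The lowest numbers were males and the highest females in every condition. Libraries of 1 number in different conditions had a median r of 0.0699. With the replicate number as a block, which thus also takes up part of sex, 0 members were called in LV AOB-F, and 1 (Fos) in RV PAB-F. With the animal as a block, which pairs both ventricles, 3 members were called in AOB-H, 2 in the PAB-F response and 5 in the age response.

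Leaving out 1 animal at a time gave 0 to 1 members called in RV PAB-H, 0 to 1 in LV AOB-F, 1 to 2 in RV PAB-F and 3 to 5 in the LV age comparison. It gave 4 to 6 between the ventricles of Sham-F, 5 to 8 of PAB-F, 0 to 1 of AOB-H and 2 to 5 of AOB-F, 2 to 5 in the age response and 0 to 1 between males and females. Genes called over the whole table also moved, from 1541 to 15 in LV AOB-F, from 538 to 1642 in RV PAB-H and from 1325 to 2726 in RV PAB-F when only the groups compared were fitted. The cause of these shifts was not tested.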
